A study of Mus musculus with 3 samples.

Results

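CTCFL peaks at transcript ends are the sites of the induced ES cells whose center, the midpoint of the peak, lay within 1 kb of the 3′ end of a protein-coding transcript. Peaks with their center from 2 kb upstream to 1 kb downstream of a protein-coding transcription start site (TSS) were called promoter peaks and left out. Of 7436 CTCFL peaks, 349 (4.69%, 95% Wilson interval 4.24 to 5.20%) met this rule, which used the position of the center and the annotation and no other measured value. They were compared with the 2344 promoter peaks and with the 4743 peaks that were in neither class, called other non-promoter peaks (363 in exons, 2063 in introns and 2317 in intergenic sequence).

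The study mapped genomic binding of CTCFL and of CTCF by ChIP-sequencing in mouse embryonic stem (ES) cells. For the CTCFL library, cells with a doxycycline-inducible CTCFL_V5_GFP transgene, grown in ES+LIF medium on gelatin, were induced with doxycycline for 3 days and sorted for GFP, and chromatin was precipitated through the V5 tag. The same transgenic cells, not induced and not sorted, were precipitated with the V5 antibody as control, and another library was made with a CTCF antibody, from ES cells that the methods call normal and the growth protocol of the labels calls transgenic. The transgene, TRE-mCTCFL-V5-GFP-neomycin, had been brought into ROSA26-rtTA ES cells, from which clones were selected, so that the CTCFL measured here is a tagged protein made from an inducible construct. There was 1 library per condition and no replicate check could be made. The p-values below cover the spread between sites of this library and not between cultures, and Wilson intervals cover counting error only. The peak list gives a start and an end for each peak but no height, so that the depth behind a peak is unknown, and CTCF binding at these sites was not analysed here.

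CTCFL, also called BORIS, is the testis-specific paralog of the ubiquitous zinc finger protein CTCF, and both proteins bind DNA through a similar array of zinc fingers and a similar GC-rich motif. CTCF is known for its role in chromatin loops and insulation, together with cohesin. The 3′ end of an mRNA is made by cleavage and polyadenylation downstream of a poly(A) signal, and many genes have several such ends.

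The annotated ends near the peaks were of several kinds. For 194 peaks (55.6%, 50.3 to 60.7%) the nearest end was the outermost end of its gene. For the other 155 it was an inner end, which fell short of the outermost one by any number of bases. Some inner ends were close to the outermost one. At Rasl10b the center was at −583 bp from the nearest end and −584 bp from the outermost (negative is upstream). With outermost ends alone, 249 peaks had their center within 1 kb of one. A total of 50 peaks (14.3%, 11 to 18.4%) lay near ends of transcripts that the annotation tags as having an unknown 3′ end, and near no other. Such ends made up 14.9% of the 44573 ends of protein-coding transcripts. A poly(A) signal (AATAAA or ATTAAA in the last 50 bases of the transcript, on its strand) was found at the nearest end for 174 of the remaining 299 peaks (58.2%), against 58.4% of all ends of known position. It was found for 0 of the 50 peaks at unknown ends. Thus 299 of the peaks lie near an end of known position, and for 50 the label rests on an end whose position is not known.

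The motif was learned from the 7087 CTCFL peaks that do not lie at transcript ends, so that it could be tested on those that do. It read CCNNNAGGGGGCGCN, in which a letter stands for a base found in at least 60% of the sites and N for any base, and positions are counted from 1 at the 5′ end. Both strands were searched in the central 200 bp of each peak. A match is a score of at least 13.5 on a log2 odds scale, the score that 2% of windows flanking the training peaks reached, and the highest score of a site in a transcript-end peak was 23.6. The sites below are printed to show what the strongest matches at transcript ends look like (mm9, read 5′ to 3′ on the strand of the motif, with the 15 bases of the motif in capitals).
Pik3cd, chr4:149024732-149024746, + strand, 3′ UTR: cgtatgaCCACCAGGGGGCGCCtcctactg
Bai1, chr15:74416891-74416905, + strand, intron: gtgctttCCAGCAGGGGGCGCCctcacctg
Arhgap40, chr2:158375993-158376007, + strand, intron: gccagatCCACCAGGGGGCGCTgggatgca
Crh, chr3:19594061-19594075, − strand, coding exon: ctcggtggCCACCAGGGGGCGCTggagagg
Epas1, chr17:87232099-87232113, − strand, 3′ UTR: gctgctcgCCAGCAGGGGGCGCTgcaccgt
Fam70b, chr8:13462041-13462055, − strand, outside genes: ggacttggCCAGCAGGGGGCGCTggagcag
These 6 sites met the consensus at all of its fixed letters and scored from 23.52 to 23.60. The 15 bases in capitals at Epas1 and Fam70b were found in 5 peaks at transcript ends, the others being those at Cyp4f14, Gm9705 and Prmt3.

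The bases around the motif differed between sites, as the 100 bases centered on the motif at Crh and at Fam70b show. The Crh site lay in the coding exon of the corticotropin-releasing hormone gene, and its 100 bases hold 13 CpG dinucleotides. The site downstream of Fam70b lay outside genes, with 2 CpGs in 100 bases. These sites are examples, and a coding exon site at 1500009C09Rik held 8 CpGs in 100 bases.
Crh, chr3:19594019-19594118, − strand: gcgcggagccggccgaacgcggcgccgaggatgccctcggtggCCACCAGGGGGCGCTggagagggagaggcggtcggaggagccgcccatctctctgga
Fam70b, chr8:13461999-13462098, − strand: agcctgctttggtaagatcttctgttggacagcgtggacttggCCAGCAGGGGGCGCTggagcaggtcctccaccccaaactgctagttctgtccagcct

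A motif match was found in 217 of the 349 peaks at transcript ends (62.2%, 57.0 to 67.1%). In windows of the same length 2 kb to either side of these peaks the share was 22 of 698 (3.15%, 2.09 to 4.73%), 59.0 percentage points lower (two-sided Fisher's exact test, p = 6.5e-103). This test took all windows as independent and did not use the pairing of each peak with its own flanks. The match was close to the center of the peak, at a median distance of 35 bp, and 147 of the 217 matches (67.7%) were within 50 bp. All fixed letters of the consensus were met by 43 matches (19.8%), and at most 1 letter differed in 124 (57.1%). Of the matches, 56 lay in a 3′ UTR, 56 in an intron, 56 outside genes, 42 in a coding exon and 7 in another exon.

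The share with a match was higher at transcript ends than at promoters. Of the promoter peaks 1110 held a match (47.4%, 45.3 to 49.4%), 14.8 points less than at transcript ends (two-sided Fisher's exact test, p = 2.89e-07, Benjamini-Hochberg adjusted p = 5.77e-07 over 2 comparisons). Of the other non-promoter peaks 2462 held a match (51.9%, 50.5 to 53.3%), 10.3 points less (p and adjusted p = 0.000238 in the same exact test). The shares in the flanks were 2.22% for promoter peaks, 2.07% for exon peaks, 1.87% for intron peaks and 1.90% for intergenic peaks. Both differences between classes depended on the scan, and that from other non-promoter peaks also depended on which peaks were kept. With the score that 5% of flanks reached, 70.8% of the transcript-end peaks and 65.9% of the promoter peaks held a match (adjusted p = 0.0778, Fisher's exact test). With the central 100 bp, the shares were 37.2% at transcript ends and 32.2% in other non-promoter peaks (adjusted p = 0.0581), and for peaks no narrower than the median of the list they were 59.7% and 57.6% (adjusted p = 0.604, exact tests).

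**Figure D1:**
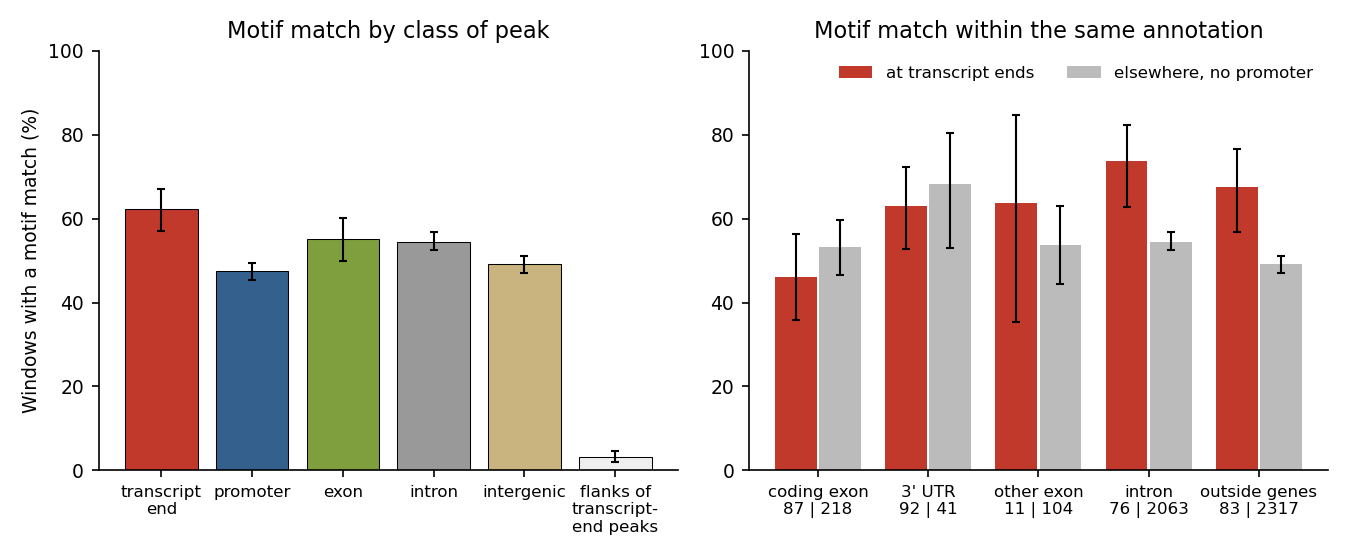
Share of windows (%) with a motif match in the central 200 bp of CTCFL peaks, with 95% Wilson intervals as error bars, by class of peak and in the flanks of the transcript-end peaks (left), and by the annotation under the center for peaks at transcript ends and for non-promoter peaks elsewhere (right, with the number of peaks in each group below the bars). The bar for transcript ends is at 62.2%, that for promoters at 47.4% and that for the flanks at 3.15%, and on the right the bars differ most for introns and outside genes.

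Other comparisons were chosen after seeing the data. Against the 3 kinds of other non-promoter peaks taken apart, the share at transcript ends was higher than in intergenic peaks (49.1%, difference 13.1 points, Fisher's exact test, two-sided, adjusted p = 1.6e-05 over 3 comparisons) and in intron peaks (54.5%, difference 7.65 points, adjusted p = 0.013). For exon peaks (55.1%, 50 to 60.1%) the difference of 7.08 points did not pass the exact test (adjusted p = 0.0575). The letters of the matches also differed between classes. The A at position 3 was found in 57.6% of the 217 matches at transcript ends (51.0 to 64.0%) and in 36% of the 1110 promoter matches (adjusted p = 5.73e-08 over 10 comparisons of letters, Fisher's exact test), while in other non-promoter peaks it was found in 61.2% (adjusted p = 0.443). A CpG at positions 12 and 13 was present in 56.7% of the matches at transcript ends, in 70.5% of those at promoters (adjusted p = 0.000442) and in 50.8% of those in other non-promoter peaks (adjusted p = 0.172, exact tests). The C at position 14 and the G at position 8 were more frequent at transcript ends (69.6 and 79.3%) than in other non-promoter peaks (60.3 and 71.1%, adjusted p = 0.0239 and 0.029 in the exact test). Against promoters these letters did not pass the exact test (67.0 and 77.8%, adjusted p = 0.541 and 0.72). Base composition differed between the classes (given below), and its part in these differences was not tested.

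The centers were spread over the whole interval around the ends. The median distance from the nearest end was 438 bp, with 72 centers (20.6%) within 200 bp and 197 (56.4%) within 500 bp. Since the rule removes promoters and neighboring ends share sequence, the peaks were counted per Mb of eligible sequence, that is, of bases at which a center would have met the rule (56.2 Mb in all). The density was highest from 600 to 400 bp inside the transcript, with 49 peaks and 9.17 per Mb (95% Poisson interval 6.78 to 12.1), and lowest in the last 200 bp of the transcript, with 29 peaks and 4.60 per Mb (3.08 to 6.61). In the first 200 bp downstream of the end it was 6.59 per Mb (4.77 to 8.87). Most of these intervals overlap, and no test between bins was made.

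**Figure D2:**
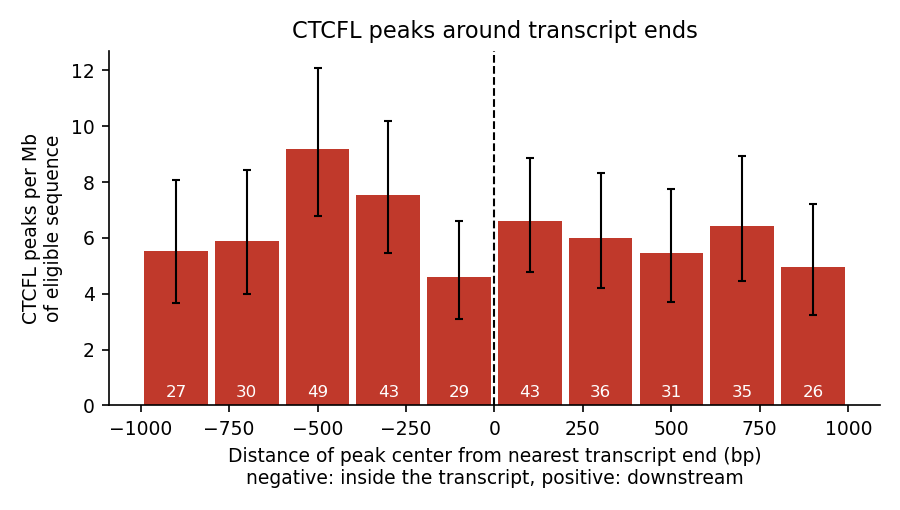
Density of CTCFL peaks (peaks per Mb of eligible sequence) in bins of 200 bp by the distance of the peak center from the nearest transcript end (bp, negative inside the transcript), with exact 95% Poisson intervals as error bars and the number of peaks in each bar. The tallest bar, 9.17 per Mb, is from 600 to 400 bp inside the transcript, and the bar just inside the end is the lowest with 4.60 per Mb.

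Peaks were found on both sides of the ends. Of the 349 centers, 179 lay upstream of the nearest end (51.3%), and 48.6% of the eligible bases were upstream (exact binomial test, two-sided, p = 0.335). This result changed with the ends that were used. With the outermost end of each gene alone, 57.0% of 249 centers were upstream against 48.0% of the bases (p = 0.00517 in the exact binomial test), and without ends of unknown position, a choice made after seeing the data, 56.2% of 299 centers against 48.7% (p = 0.0108). For the strand of the motif no difference from 50% was detected. It was on the strand of the transcript in 92 of 199 peaks with a match (46.2%) (exact binomial test, two-sided, p = 0.321).

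Coding sequence was the annotation that stood out. The center lay in a coding exon in 87 peaks (24.9%, 20.7 to 29.7%), whereas coding exons made up 9.62% of the eligible bases (exact binomial test, two-sided, p = 9.87e-17, adjusted p = 4.93e-16 over 5 annotations). Introns held 76 centers (21.8%) against 30.2% of the bases, a lower share (adjusted p = 0.00114 in the exact test). The 3′ UTRs held 92 centers (26.4%, 22.0 to 31.2%) and 29.5% of the bases, and sequence outside genes held 83 (23.8%) and 28.6%; neither difference passed the exact test (adjusted p = 0.218 and 0.084). Other exons held 11 centers (3.15%, against 2.09% of the bases, adjusted p = 0.218, exact test). The lower share of introns was lost with ends within 500 bp (17.3%, against 23.6% of the bases, adjusted p = 0.0897) and with outermost ends (12%, against 14.8%, adjusted p = 0.246, exact tests). The coding exon share stayed between 21.3 and 29.6% under the alternatives tried, with an adjusted p of at most 6.05e-08.

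**Figure D3:**
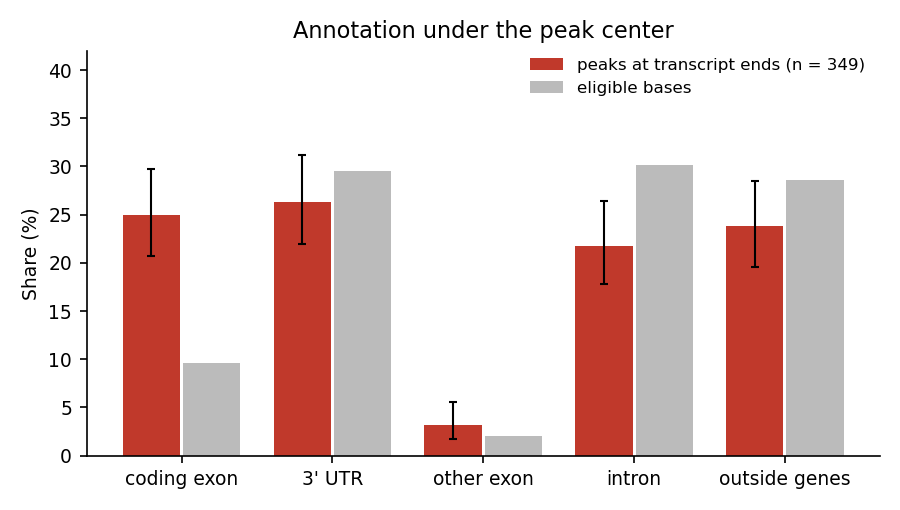
Share (%) of the 349 peak centers at transcript ends in each annotation, with 95% Wilson intervals as error bars, beside the share of the eligible bases. Coding exons hold 24.9% of the centers and 9.62% of the bases, and in the other annotations the bars lie within 10 percentage points of each other.

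The peaks in coding exons also differed in sequence from the rest of the transcript-end peaks. Their central 200 bp had a GC content of 63.0 ± 8.43% (mean ± SD over 87 peaks), and the other 262 had 53.7 ± 6.56% (permutation test, two-sided, adjusted p = 7e-05 over 7 comparisons chosen after seeing the data, from the smallest p that the permutations can give). They held 14 CpGs per 200 bp on average, against 4.72. A motif match was less frequent among them, with 40 of 87 (46.0%, 35.9 to 56.4%) against 177 of 262 (67.6%), 21.6 points lower (two-sided Fisher's exact test, p = 0.000523, adjusted p = 0.00366 over 7). Their median width was 559 bp against 464 bp (permutation test, adjusted p = 0.0028). The part of GC content in the share of coding exons was not tested.

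Peaks at transcript ends were also compared with non-promoter peaks elsewhere in the genome within the same annotation, without a test between annotations. Intron peaks held a match in 56 of 76 cases at transcript ends (73.7%, 62.8 to 82.3%) and in 54.5% of 2063 cases elsewhere (Fisher's exact test, two-sided, adjusted p = 0.00275 over 5 annotations, chosen after seeing the data). Peaks outside genes held one in 56 of 83 cases (67.5%, 56.8 to 76.6%) and in 49.1% of 2317 elsewhere (adjusted p = 0.00275, exact test). Some of the 76 intron peaks, such as those at Hspd1 and Akt1, lay only near ends of unknown position. The part of such peaks in the intron difference was not tested. In coding exons the shares were 46.0 and 53.2% (adjusted p = 0.429), and in 3′ UTRs 63.0 and 68.3% (adjusted p = 0.752, exact tests), but only 41 peaks lay in 3′ UTRs away from transcript ends and the interval of their share ran from 53.0 to 80.4%. Coding exon peaks had a GC content of 63.0 ± 8.43% at transcript ends and 60 ± 7.63% elsewhere (permutation test, adjusted p = 0.01). Outside genes it was 54.2 ± 5.76 and 51.1 ± 7.50% (adjusted p = 0.0009 in the same permutation test). In introns (52.8 and 51.2%, adjusted p = 0.0729), 3′ UTRs (53.7 and 52.6%, 0.533) and other exons (56.3 and 55.1%, 0.664) the difference did not pass this permutation test.

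Width was the only measured property of a peak in the list. At transcript ends the median was 486 bp. The quartiles were 375 and 619 bp, and the peaks spanned 209 to 2702 bp. Other non-promoter peaks were narrower, with a median of 422 bp (difference 64 bp, permutation test, two-sided, adjusted p = 2e-05 over 2 comparisons), and promoter peaks were wider, with 515 bp (difference of medians −29 bp, adjusted p = 0.0147). The second difference was small and was not held by all settings. It was −25 bp for outermost ends (adjusted p = 0.0724), −21 bp without ends of unknown position (p = 0.111) and −2 bp among the wider peaks of the list (those no narrower than its median, p = 0.869; permutation tests). Exon peaks had a median of 480 bp, intron peaks 426 bp and intergenic peaks 411 bp.

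The difference in width from other non-promoter peaks was not found in every annotation. Outside genes the medians were 487 bp at transcript ends and 411 bp elsewhere (permutation test, two-sided, adjusted p = 0.00115 over 5 annotations, chosen after seeing the data), and in coding exons 559 and 490 bp (adjusted p = 0.044). In introns the peaks at transcript ends had the lower median, 412 against 426 bp, and this did not pass the permutation test (adjusted p = 0.553). In 3′ UTRs both medians were 474 bp, and in other exons they were 577 and 457 bp (adjusted p = 0.136 in the permutation test).

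The GC content of transcript-end peaks was below that of promoters and above that of the other non-promoter peaks as a whole, but not above that of exon peaks. The GC content of the central 200 bp was 56.0 ± 8.12% (mean ± SD over 349 peaks), against 62.4 ± 9.31% at promoters and 51.6 ± 7.50% in other non-promoter peaks. The differences of −6.38 and 4.37 percentage points both had p = 1e-05, the smallest that the permutation test can give (two-sided, 100000 resamples). Taken alone, exon peaks had 57.8 ± 8.33%, a value above that at transcript ends that was not tested. In the flanks of the transcript-end peaks the GC content was 49.7 ± 7.83%. There were 7.03 ± 6.94 CpGs per 200 bp at transcript ends, 14.1 at promoters, 9.13 in exon peaks and 4.43 in other non-promoter peaks. The central 200 bp resembled a CpG island (GC of at least 50% and a ratio of observed to expected CpGs of at least 0.6) in 67 peaks at transcript ends (19.2%), in 61.8% of the promoter peaks, in 30% of the exon peaks and in 9.47% of the other non-promoter peaks.

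**Figure D4:**
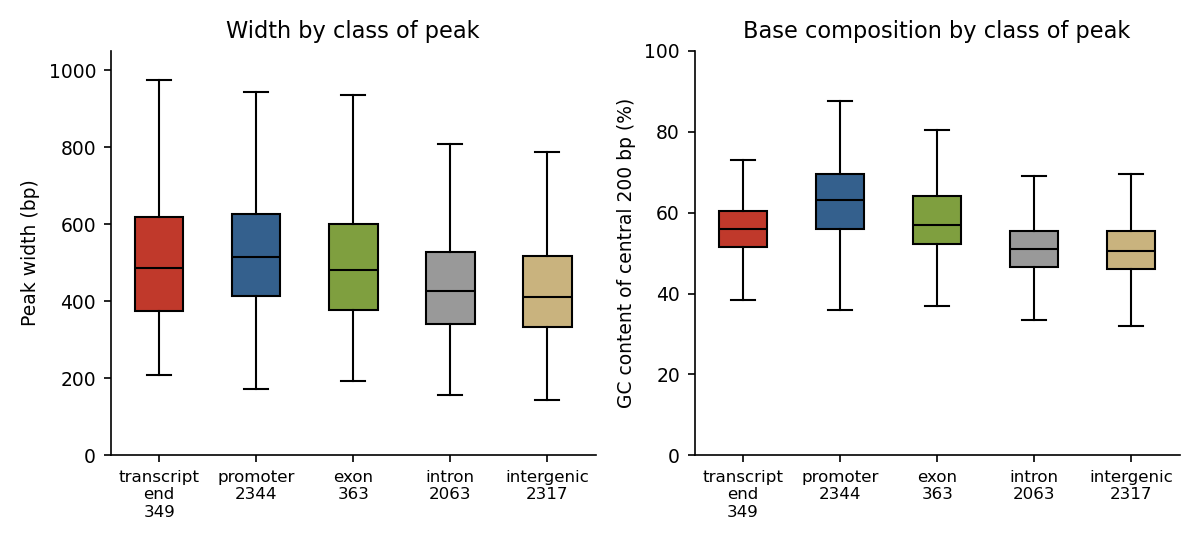
Width (bp, left) and GC content of the central 200 bp (%, right) of CTCFL peaks by class, with the number of peaks below each box. Boxes span the quartiles with a line at the median, whiskers reach the last value within 1.5 box heights and values beyond are not drawn; transcript-end peaks (median width 486 bp) are narrower and less GC-rich than promoter peaks and lie above intron and intergenic peaks in both plots.

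The widest peaks at transcript ends had no motif at their center. The rule for named genes took the 10 widest with at least 90% unique sequence. These lay near the ends of Gdf15 (a stress-induced cytokine of the TGF-β family, 1153 bp), Lass5 (a ceramide synthase, 1133 bp), Kcnk12 (a potassium channel, 1077 bp), Jun (a subunit of the AP-1 transcription factor, 1067 bp) and Slc29a1 (a nucleoside transporter, 1066 bp). The others were at Ctdsp1, Ccdc86, Slc4a3, Rpl22 and Zfp777 (1043 to 974 bp). The central 200 bp held a match in 0 of the 10. The highest scores were 12.58 at Kcnk12, 12.21 at Ccdc86 and 12.12 at Slc4a3, just under the limit of 13.5, and the lowest was 1.72 at Ctdsp1. Over their whole interval 6 of the 10 held a match, and so did 4 of 20 windows of the same widths 2 kb away. With the transcript-end peaks divided by width into 5 groups, the share with a central match was 68.6% in the narrowest (209 to 351 bp) and 49.3% in the widest (642 to 2702 bp, 37.8 to 60.8%), with 71.4% in the next widest. Across all 349, the median width was 481 bp in the 217 peaks with a match and 492 bp in the 132 without, a difference that did not pass the test (permutation test, two-sided, adjusted p = 0.84 over 7), and no test was made between the groups by width. The widest of all, 2702 bp at Gm10717 on chromosome 9, had 23.8% unique sequence, and 19 peaks (5.44%) had under 90%, against 6.26% of the peaks elsewhere.

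**Figure D5:**
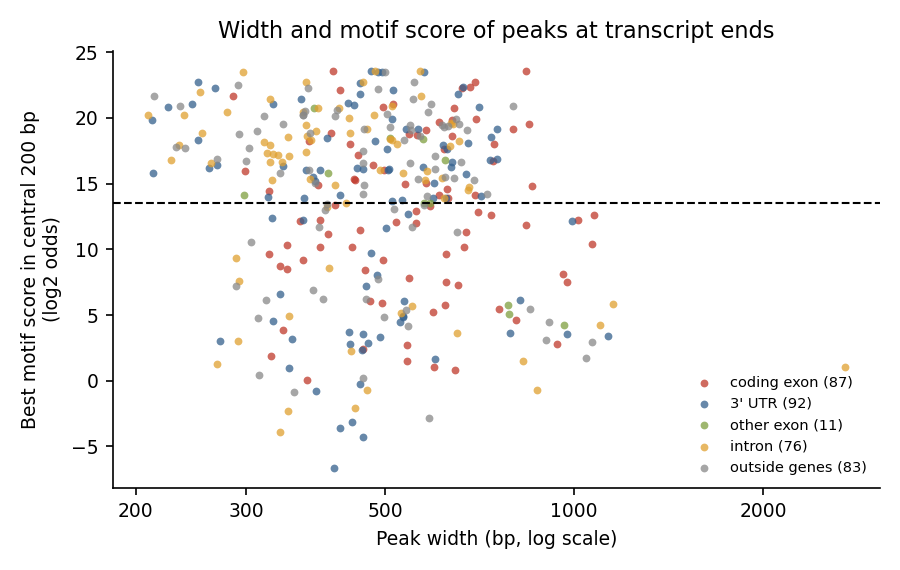
Best motif score in the central 200 bp (log2 odds) against peak width (bp, log scale) for the 349 CTCFL peaks at transcript ends, colored by the annotation under the center, with the score of 13.5 that counts as a match as a dashed line. Points above the line are the 217 peaks with a match; the peaks over 1000 bp all lie below it.

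The Jun peak (chr4:94716676-94717742) had its center in the coding exon, 281 bp upstream of an inner end and 1653 bp from the nearest TSS. Its central 200 bp had a GC content of 65.0% and 18 CpGs, and the best score was 10.39. The Kcnk12 peak (chr17:88145242-88146318) was also in a coding exon, 603 bp upstream of the outermost end, with 15 CpGs. The Slc29a1 peak (chr17:45721230-45722295) lay 387 bp downstream of the outermost end, outside genes, and the Lass5 peak (chr15:99565746-99566878) lay in the 3′ UTR with 1 CpG in its central 200 bp. Thus the wide peaks described here included those in GC-rich coding exons at Jun and Kcnk12 and 1 in a CpG-poor 3′ UTR, at Lass5.

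The peaks with the highest motif scores were of ordinary width. The highest, 23.60, was at Pik3cd (chr4:149024512-149024985, 474 bp), which encodes a catalytic subunit of phosphoinositide 3-kinase. Its center was 1 bp downstream of an inner end, in the 3′ UTR, with the site printed above 9 bp from the center. The peak at Bai1 (an adhesion receptor, score 23.57) lay in an intron 999 bp upstream of an inner end, at the limit of the rule. The 3 peaks scoring 23.55 were at 1500009C09Rik (coding exon), Arhgap40 (intron) and Crh (coding exon). The 5 scoring 23.52 were at Cyp4f14 (a cytochrome P450), Epas1 (the hypoxia-inducible factor HIF-2α) and Gm9705, all in 3′ UTRs, at Fam70b outside genes and at Prmt3 (a protein arginine methyltransferase), in an intron near an end of unknown position. These 10 peaks were 296 to 839 bp wide.

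To see which genes had a CTCFL peak at a transcript end, all genes with an end within 1 kb of a center were counted. There were 375 such genes, or 1.68% of 22365 protein-coding genes, and 11.2% of protein-coding genes had a promoter peak. The 2 classes of peak shared genes: 65 of the 375 genes (17.3%, 13.8 to 21.5%) had a promoter peak as well, and these are 2.59% of the 2513 genes with one. Long genes and gene-dense regions offer more ends and starts, and their part in this share was not tested. The 66 transcript-end peaks of such genes were wider than the rest (median 562 against 474 bp, permutation test, two-sided, adjusted p = 0.00842 over 7), and 48 held a motif match (72.7% against 59.7%, Fisher's exact test, adjusted p = 0.232). The widest of them were at Lass5, Slc29a1, Tnfrsf25 (a death receptor, 830 bp), Zscan10 (a zinc finger protein of ES cells, 799 bp) and Bcan (the brain proteoglycan brevican, 798 bp). At Zscan10 (chr17:23747354-23748152) the center was 36 bp upstream of an inner end, in a coding exon, with a score of 19.15. At Bcan (chr3:87790649-87791446) it lay 406 bp downstream of the outermost end with a score of 20.91, and the nearest other CTCFL peak was 741 bp away.

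Ends of convergent genes lay within 1 kb of the center in 26 peaks (7.45%, 5.13 to 10.7%), a share for which no background was counted. The widest were at Tnfrsf25 and Espn, at Nkiras2 and Zfp385c (753 bp), at Cuedc2 and Fbxl15 (702 bp), at Gdf1, Lass1 and Upf1 (677 bp) and at Rasl10a and Gas2l1 (663 bp). A motif match was present in 3 of these 5. The sites are printed because they lie at the ends of genes transcribed toward each other (mm9, motif in capitals).
Rasl10a and Gas2l1, chr11:4960026-4960040, + strand, coding exon: ccctccgCCTGCAGGGGGCGCTgcacccag
Nkiras2 and Zfp385c, chr11:100488402-100488416, + strand, 3′ UTR: ctcttaaCCACCAGGGGGCAGGggtgcact
Gdf1, Lass1 and Upf1, chr8:72856160-72856174, + strand, 3′ UTR: ctcgccgCCCACAGGGGGCGCCcgctcctc
Upf1 encodes the helicase of nonsense-mediated mRNA decay and Nkiras2 an inhibitor of NF-κB signaling. The scores were 22.30 at Rasl10a, 19.16 at Nkiras2 and 18.07 at Gdf1, and 12.85 at Cuedc2 and 1.49 at Tnfrsf25, which fell short of a match.

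Gene lists were read against the background of 1.68%, without a test. Among developmental transcription factors, peaks were found at Irx3, Irx4 and Lhx5, which act in the patterning of embryonic tissues. The Irx3 peak (chr8:94321255-94322167) was 913 bp wide, lay 717 bp beyond the end of the gene, held 13 CpGs in its central 200 bp and had a score of 4.44. The Irx4 peak (405 bp, score 11.18) lay in a coding exon and the Lhx5 peak (438 bp, score 3.67) in the 3′ UTR.

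Zinc finger genes of the Zfp kind had a transcript-end peak at 7 of 365 genes (1.92%), close to the background. The peaks at Zfp648, Zfp524, Zfp865, Zfp444 and Zfp777 were in coding exons, with 11 to 27 CpGs per 200 bp, and 1 of the 5, at Zfp524, held a match (18.76). The peak at Zfp61 lay in an intron (score 18.56), and that at Zfp385c is the convergent site above. The peaks at Zfp524 and Zfp865, 546 bp wide each, lay 14124 bp apart.

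The Klf list of 17 genes and the pluripotency list of 28 genes had the same single member, Klf4, a transcription factor used in reprogramming. Its peak (chr4:55543057-55543509, 453 bp) lay in a coding exon, 192 bp beyond an end of unknown position, so that it is not a peak at an established 3′ end. The motif scored 17.21. Ribosomal protein genes had 2 of 79 (2.53%), Rpl22 and Rps15, of which the Rps15 peak had 74.8% unique sequence. Genes of spermatids and sperm had 1 of 68 (1.47%), Spag16, and the score there was −3.88. Olfactory receptor genes had 1 of 1113 (0.0898%), Olfr750, with a score of 18.30.

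In the remaining 7 lists the count was 0, against 1.68% of all protein-coding genes. At that background a list of 19 to 67 genes is too small for a count of 0 to be read as a lack of peaks. The lists were the 40 Hox genes, the 24 clustered protocadherins, the 67 histone genes of the Hist clusters, the 19 genes of cohesin, CTCF and their loading factors, the 43 meiosis and spermatogonial genes, the 46 imprinted genes and the 32 genes of mRNA 3′ end processing. Promoter peaks were present at 8 of the 19 cohesin and CTCF genes and 7 of the 43 meiosis and spermatogonial genes. They were present at 10 of the 46 imprinted genes and 5 of the 32 genes of 3′ end processing. Of the other lists, 1 of the 40 Hox genes, 2 of the 24 protocadherins and 5 of the 67 histone genes had one. The share over all protein-coding genes was 11.2%. No test was made, and with counts this small no list was called above or below that share.

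CTCFL peaks at transcript ends had other CTCFL peaks nearby more often than peaks elsewhere. Another peak lay within 10 kb of 86 of the 349 (24.6%, 20.4 to 29.4%), against 14.8% of the promoter peaks and 12.7% of the other non-promoter peaks (Fisher's exact test, two-sided, adjusted p = 1.05e-05 and 2.5e-08 over 3 comparisons chosen after seeing the data). The median distance to the nearest other peak was 26066 bp. The nearest TSS was within 5 kb of 129 transcript-end peaks (37%), and belonged to another gene in 115 of the 349 (33.0%). The part of gene density in the neighborhood of peaks was not tested. A start of a non-coding transcript was within 1 kb in 5 peaks (1.43%).

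The share of CTCFL peaks at transcript ends was highest on chromosome 17, with 27 of 343 peaks (7.87%), and lower on chromosome 9 (11 of 428, 2.57%) and on the X chromosome (2 of 117, 1.71%). There were 0 of 2 on the Y chromosome, and no test between chromosomes was made. At the limit of the rule, the outermost peaks included were those at Bai1 (999 bp), Spag16 (997 bp) and Rpn1 (996 bp), with motif scores of 23.57, −3.88 and 4.18. The nearest peaks beyond it were at Pdzd7 (1005 bp), Sae1 (1010 bp) and Atp9a (1010 bp), with scores of 18.85, 4.94 and 1.96.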

How the data were processed

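ChIP DNA of 3 libraries was sequenced by the authors, and the deposited file used here gives intervals (start and end) for CTCFL binding after induction, on mm9 (a build named in the submitters' processing notes). Their methods name ELAND and BOWTIE for mapping 36-bp reads and MACS for peaks. Which steps made this list is not given in the sources used here. The list holds more peaks than the number of CTCFL sites that the paper reports, and the reason is not given. All columns were mapped (0 unmapped), and no read depth is given. The other 2 libraries were not analysed here.

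Centers were compared with GENCODE protein-coding transcripts (51720 transcripts of 22365 genes) on NCBIM37, the assembly of mm9. Annotation classes were taken in the order coding exon, 3′ UTR, other exon, intron, outside genes. The motif matrix came from the 7087 peaks not at transcript ends (2598 sites), by an iterative search of the central 100 bp against windows 2 kb away. Uniqueness is the share of 36-base windows of a peak found once in the genome. Fisher's exact, exact binomial and permutation tests (100000 resamples, two-sided) were used, with Benjamini-Hochberg adjustment within a family and a threshold of 0.05. Procedures were tested on simulated data (Python 3.11.15, numpy 2.4.6, scipy 1.17.1).

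The members, gene lists and comparisons were chosen with earlier results of these data known. Named genes were those at the 10 widest peaks with at least 90% unique sequence, the 10 with the highest motif score, peaks at genes of the lists, the 5 widest with a promoter peak of the same gene, the 5 widest between convergent genes, and those beside the 1 kb limit. Some list results are not reported here. Alternatives changed the promoter interval, the end window, the ends, biotypes, widths, uniqueness, chromosomes, merging and the motif scan.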

Additional observations from a re-analysis of the deposited data

How the results depend on the processing

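All tests here are the exact or permutation tests of the report. Of 148 alternative values for 15 results, 133 were counted as unchanged. For the tested results this means the same direction and the same side of the threshold. The number of transcript-end peaks has no test, and for it counts from 249 to 422 were taken as unchanged against 349. Keeping peaks no narrower than the median left 206 transcript-end peaks, with a width difference from promoters of −2 bp (adjusted p = 0.869) and a motif difference from other non-promoter peaks of 2.11 points (p = 0.604, exact test). A window of 500 bp left 197 peaks and 17.3% in introns (adjusted p = 0.0897, exact test). Outermost ends gave a width difference from promoters of −25 bp (permutation p = 0.0724), 57.0% upstream (p = 0.00517), 12% in introns (adjusted p = 0.246) and 33.3% outside genes, against 43.7% of the bases (adjusted p = 0.00219, past the threshold). Transcripts of every biotype turned the direction for 3′ UTRs (22.3%, against 20.6% of the bases) and other exons (7.11%, against 7.71%), neither past the threshold. The motif difference from promoters was 4.86 points at 5% of flanks (p = 0.0778) and that from other non-promoter peaks 5.05 points in the central 100 bp (p = 0.0581, exact tests). Ends of known position only, added after seeing the data, gave −21 bp in width against promoters (p = 0.111) and 56.2% upstream (p = 0.0108, exact test). The causes were not tested. Every value rests on 1 library without peak heights, so a stricter peak threshold could be replaced only by width. No analysis paired by sample was possible because there is 1 library per condition and 1 peak list.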
